A study of Caenorhabditis elegans with 2 samples.

Results

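Of the 3726 DPL-1 peaks that passed the authors' irreproducible discovery rate (IDR) threshold on build ce11, 244 had their summit within 200 bp of a nuclear gene for a transfer RNA (tRNA), small nucleolar RNA (snoRNA) or small nuclear RNA (snRNA). They were chosen by the position of the summit and the Ensembl annotation of WBcel235 alone, and the signal of a peak played no part. The 244 peaks lay beside 257 genes: 135 summits beside tRNA genes, 88 beside snoRNA genes and 22 beside snRNA genes, with 1 summit beside genes of 2 classes. None lay beside a ribosomal RNA (rRNA) gene.

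The peaks come from sequencing of chromatin immunoprecipitated for DPL-1 (ChIP-seq). The 2 biological replicates, which form 1 group, were whole mixed-sex Caenorhabditis elegans larvae of the first stage, L1. The strain, YL448, was an unc-119(ed3) III mutant carrying the insertion vrIs83, which holds an unc-119(+) copy and a dpl-1 fusion to GFP and FLAG tags with the dpl-1 3' UTR. The fusion was driven by the ges-1 promoter, which is active in the intestine, whereas the chromatin came from whole animals, and the antibody label gave dpl-1 without the epitope, so native and transgenic protein cannot be told apart. No second condition or strain was used here, so the results describe where the summits lay, how strong the peaks were and how far the replicates matched.

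The protein DPL-1 is the DP subunit of C. elegans E2F transcription factors and of the DREAM complex, a repressor of cell cycle genes. tRNA genes are transcribed by RNA polymerase III from promoter elements inside the gene, box A near the 5' end and box B further in, which the factor TFIIIC binds. snRNA genes and the spliced leader genes have a promoter element upstream of the gene that is bound by the complex SNAPc. snoRNAs guide the modification of ribosomal and other RNAs, and their genes often lie in introns of protein-coding genes or carry a promoter of their own.

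The sequences on which the description of the summits turns are the tRNA promoter boxes and the upstream stretches of the snoRNA and spliced leader genes. They are from the RefSeq genome of WBcel235, on the strand of the gene, 5' to 3'. The first set shows box A and box B strings in 3 tRNA genes beside members, with the searched letters, GCNNAGTNG or GCNNAGCNG for box A and GTTCGA for box B, in capitals. In all 442 tRNA genes that hold GTTCGA, the last match ends 20 bases or less before the end of the gene, and that match is shown. C04A11.t1 (tRNA-Leu, X) had the summit inside the gene, at position 13, W09G10.t3 (tRNA-Thr, II) at position -17 and F57F5.t1 (tRNA-Ile, V) at position -3, counted from the gene's first base.
C04A11.t1 box A: ggatgGCCGAGTGGtctaag
C04A11.t1 box B: atgggtgcgtggGTTCGAatcccacttcgt
W09G10.t3 box A: cattgGCTCAGTGGcagagc
W09G10.t3 box B: agaaggtcgctgGTTCGAttccagcatgag
F57F5.t1 box A: cattgGCGCAGTCGgttagc
F57F5.t1 box B: ccaaggtcgccaGTTCGAgcctggcatggg

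The next set shows the same letters upstream of 4 snoRNA genes beside members, where they lie before the start of the gene and not within a tRNA gene.
T24H7.6 upstream box A: caatgGCGGAGTGGttgtat
T24H7.6 upstream box B: tgtagGTTCGAcccccgctt
T06C12.16 upstream box A: gcgtgGCCTAGTGGtgtgta
T06C12.16 upstream box B: cacggGTTCGAtgtgcgcga
T10B9.11 upstream box A: cggtgGCGCAGTGGgtaacg
T10B9.11 upstream box B: gtcgtGTTCGAcgcctggac
F11A10.9 upstream box A: gcgtaGCGCAGTTGggtgtg
F11A10.9 upstream box B: cacgaGTTCGAcccccactg

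The last set shows the stretch from position -71 to -42 upstream of spliced leader 2 (SL2) RNA genes, where position 0 is the first base of the gene. Capitals mark the 10 positions at which the 6 genes with a summit shown here, which are those on chromosomes II and III, have the same base. sls-2.10 and sls-2.12, on chromosome IV, had no IDR summit and have capitals only where they carry that shared base.
sls-2.1: aGttattcgCttgcCtCGaaAgatGTCtGt
sls-2.2: tGttactcgCttgcCtCGaaAgcgGTCgGt
sls-2.3: cGttcatcgCttgcCtCGaaAaatGTCtGa
sls-2.8: aGcacccggCggaaCcCGgcAaatGTCcGt
sls-2.14: aGcggcgcgCggaaCcCGcgAgatGTCgGc
sls-2.16: aGtggtgttCggaaCcCGcgAtatGTCgGg
sls-2.10: gGtgctccaCgcgcacCcattttttgtcGg
sls-2.12: tGtggctgaCgaaaCcCGcagactGTCgGt

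A summit lay within 200 bp of 147 of 612 tRNA genes (24.0%, 95% interval 20.7 to 27.6), of 89 of 346 snoRNA genes (25.7%, 21.2 to 30.7) and of 21 of 129 snRNA genes (16.3%, 10.4 to 23.8). Over all nuclear genes of the annotation the share was 7.14%. It was 12.1% for protein-coding genes, which are longer, 7.44% for other noncoding RNA genes, 3.83% for microRNA genes and 0.306% for piRNA genes. All intervals here are at the 95% level, by the exact Clopper-Pearson method for shares, and cover counting of genes or peaks alone. For a count of 0, the limit given is 3 counts of the total. No summit lay beside any of 20 rRNA genes, which allows a share of up to 15.0% by that rule, and none of the 30000 pooled peaks without a threshold did either. How reads of repeated genes were placed is not given in the sources used here.

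Each replicate gave nearly the same shares when its own 3726 strongest peaks were used. Replicate 1 had a summit beside 144 tRNA, 85 snoRNA and 21 snRNA genes, and replicate 2 beside 135, 81 and 21. In the pooled list of 30000 peaks without a threshold, 391 tRNA genes (63.9%), 180 snoRNA genes (52.0%) and 38 snRNA genes (29.5%) had a summit, beside 32.4% of all nuclear genes. Most of the tRNA genes with a pooled summit thus had it among the peaks below the IDR threshold.

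Summits gathered at the genes themselves. Within 200 bp of the 5' end of tRNA genes there were 6.00 IDR summits per 100 genes and 100 bp, against 0.384 at distances of 1000 to 2000 bp, a ratio of 15.6. The ratio was 7.59 for snoRNA genes (6.36 against 0.838) and 14.4 for snRNA genes (4.46 against 0.310). Among genes whose 5' end lay in no protein-coding promoter window, the ratios were 16.9, 6.47 and 15.8. The snRNA ratios rest on few distant pairs of summit and gene, 8 over all snRNA genes. In replicate 2 alone, with 4 such pairs, the ratio was 26.25 for all snRNA genes, and with 2 it was 42.5 for those in no promoter window. In all 3 classes the bin with most summits was the 100 bp before the gene.

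**Figure D1:**
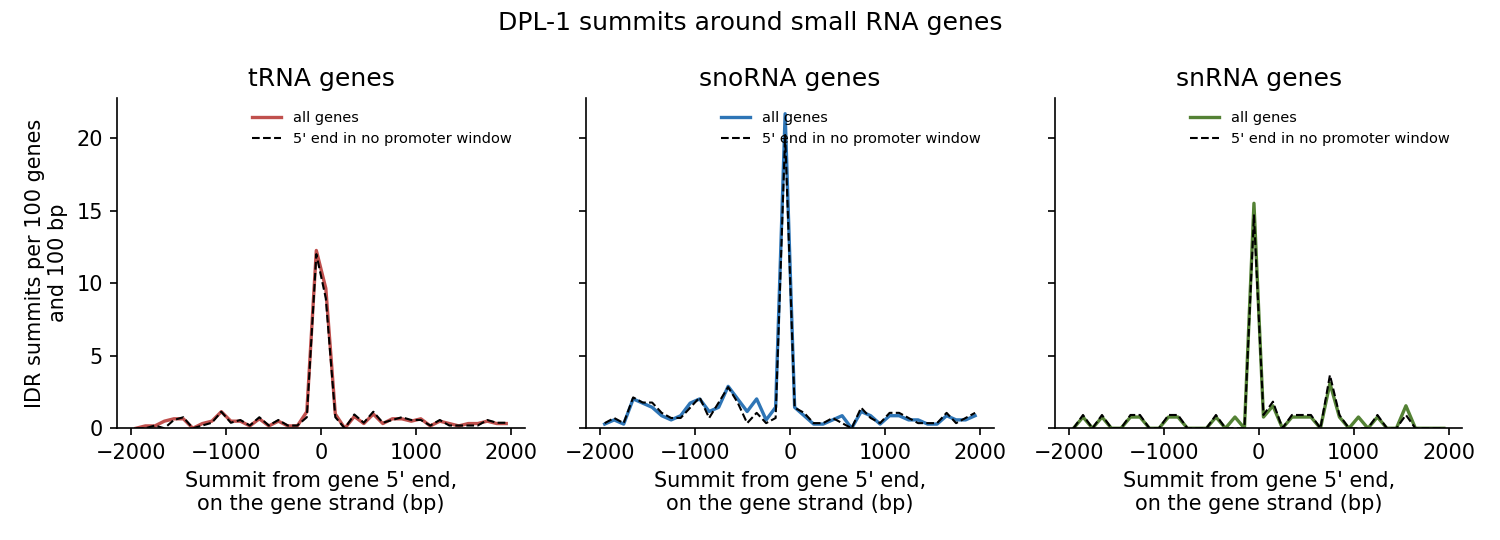
IDR summits per 100 genes in bins of 100 bp (vertical axis) by distance in bp from the 5' end of tRNA, snoRNA and snRNA genes on the gene's strand (horizontal axis, negative is upstream). Solid lines are all genes of the class and dashed lines are genes whose 5' end lies in no protein-coding promoter window; in each class the highest bin is the 100 bp just upstream of the gene.

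The place of the summit differed between tRNA genes and the other classes. At tRNA genes the median summit was at position -5 (quartiles -27.5 and 29.5), at the 5' end near box A. Of 135 summits, 73 (54.1%) were upstream, 58 (43.0%, 34.5 to 51.8) were inside the gene and 4 (2.96%) were downstream, although the gene itself made up 15.8% of the bases in reach. At snoRNA genes the median was -48 (quartiles -64 and -30.75), with 79 of 88 summits (89.8%) upstream and 5 inside. At snRNA genes it was -47, with 19 of 22 (86.4%) upstream and 1 inside.

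In each replicate the tRNA median lay nearer to the gene start than the other medians. The median at tRNA genes was -1 in replicate 1 and -15 in replicate 2, at snoRNA genes -48 and -55, and at snRNA genes -50 and -49. The share of tRNA summits inside the gene was 47.0% in replicate 1 and 32.3% in replicate 2. Summits in and outside protein-coding promoters had IDR medians of -3 and -5 at tRNA genes, -45 and -48.5 at snoRNA genes, and -60.5 (4 summits) and -45.5 at snRNA genes. In replicate 2 the medians in and outside promoters were -25 and -13.5 at tRNA genes and -69 and -49 at snoRNA genes.

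**Figure D2:**
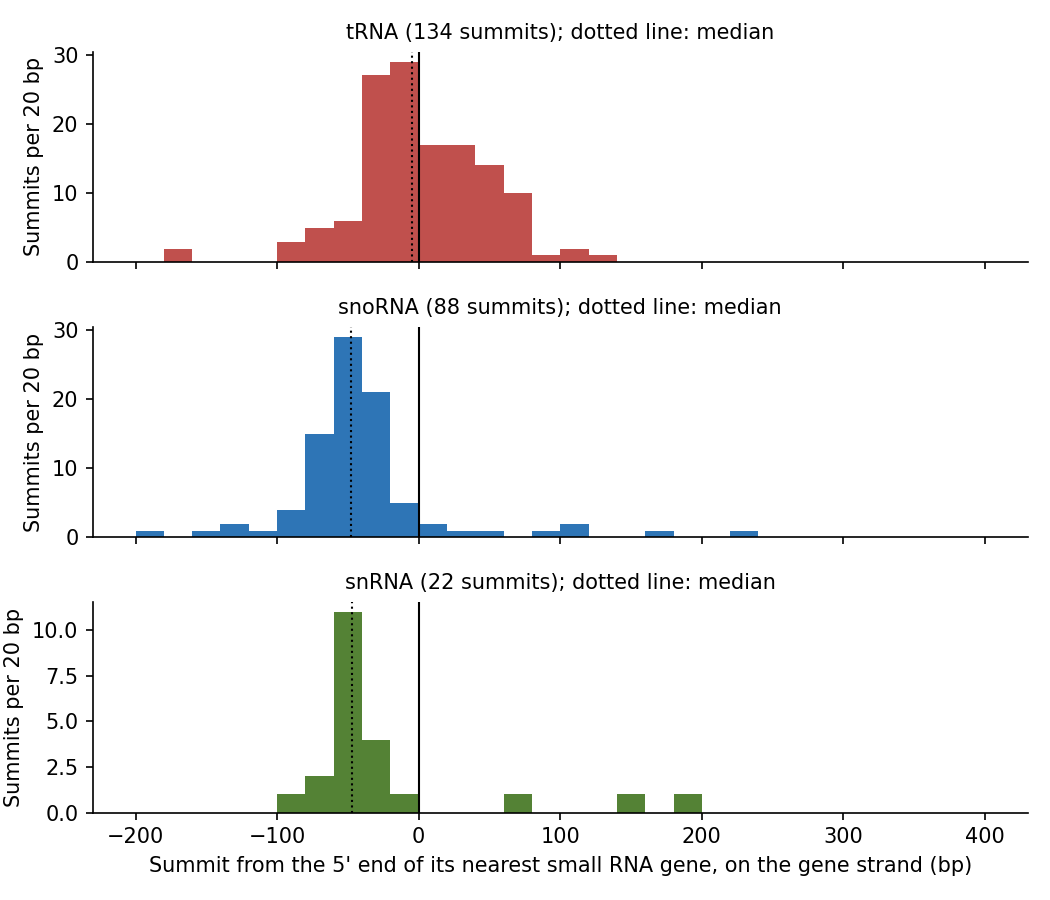
Number of member summits per 20 bp (vertical axis) by distance in bp from the 5' end of the nearest small RNA gene on its strand (horizontal axis), for 134 tRNA, 88 snoRNA and 22 snRNA summits. The solid line is the 5' end and the dotted line the median; tRNA summits straddle the 5' end, whereas snoRNA and snRNA summits peak about 40 to 60 bp upstream.

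Most members were not promoter peaks of protein-coding genes. A promoter was taken from 500 bp upstream to 200 bp downstream of an annotated transcript start. By this rule 55 of 244 members (22.5%, 17.5 to 28.3) were in a promoter, against 2207 of the other 3482 IDR peaks (63.4%) and 60.7% of all IDR peaks. The share was 20% for tRNA summits, 27.3% for snoRNA summits and 18.2% for snRNA summits. Introns held 98 members (40.2%) against 11.3% of other IDR peaks, intergenic sequence held 87 members (35.7%) against 24.0%, and exons held 4 members (1.64%) against 1.41%. The rule chose members by distance to small RNA genes, so these shares depend on where those genes lie. The 5' end lay in a promoter window for 87 of 612 tRNA, 64 of 346 snoRNA and 20 of 129 snRNA genes. In such windows 33.3% of tRNA, 34.4% of snoRNA and 20% of snRNA genes had a summit. Outside such windows the shares were 22.5, 23.8 and 15.6%.

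Members were weaker than other IDR peaks, and tRNA peaks the weakest. The authors' signal, whose scale the files do not state, had a median of 75.5 over members (range 39.5 to 1323) and 97.5 over other IDR peaks. The median was 63.8 for tRNA peaks (highest 241), 97.5 for snoRNA peaks (highest 768) and 90 for snRNA peaks. Of the 1863 stronger IDR peaks, 79 were members, that is 32.4% of members against 51.2% of other IDR peaks. tRNA peaks had 17.04% of their number there, snoRNA peaks 52.3% and snRNA peaks 45.5%.

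The order of the medians depended on promoter overlap. In promoters the median signal was 86.9 for members and 139.5 for other IDR peaks, whereas outside promoters it was 74.2 for members and 66.9 for other IDR peaks. snoRNA peaks outside promoters had a median of 90.5 and tRNA peaks outside promoters of 63.7. In bins 1 to 5 of the IDR list by rank, strongest first and of 745 or 746 peaks each, members made up 1.34, 4.70, 10.3, 10.1 and 6.30% of the peaks. No tRNA peak was in bin 1, which held 5 snoRNA and 5 snRNA peaks.

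**Figure D3:**
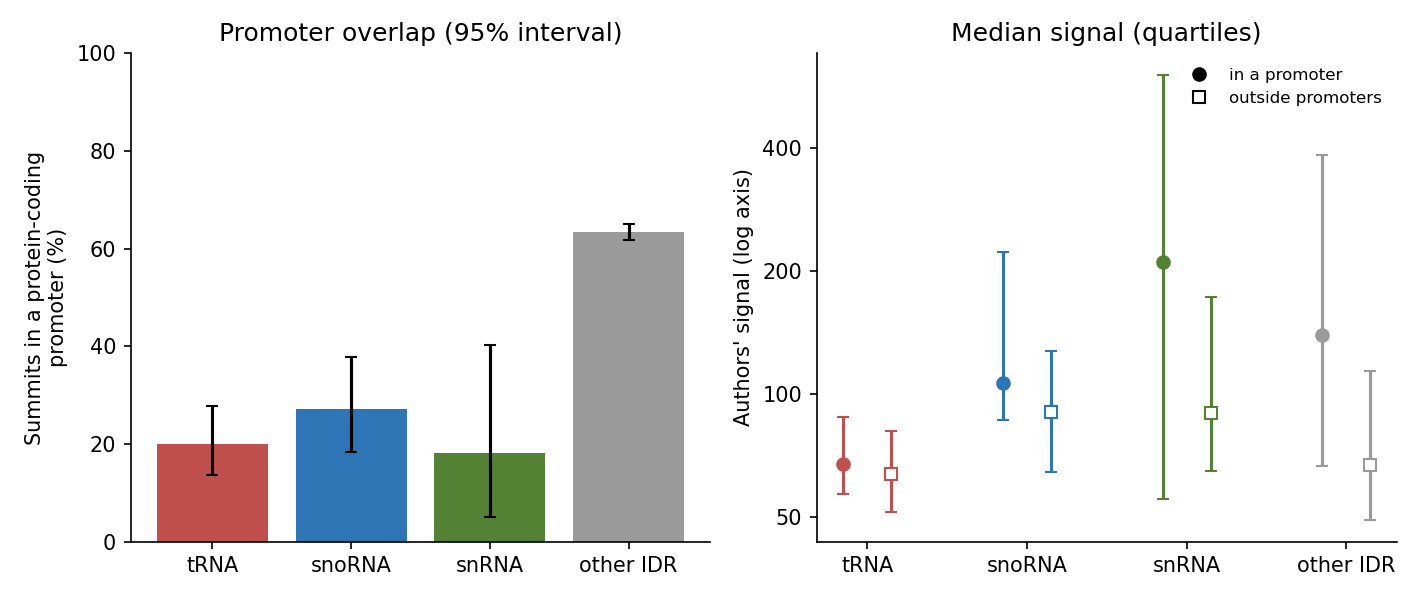
Left, percent of summits in a protein-coding promoter for tRNA, snoRNA and snRNA peaks and for the other IDR peaks, with exact 95% intervals; the 3 member classes are at 18.2 to 27.3% and the other IDR peaks at 63.4%. Right, median of the authors' signal (log axis) with quartiles for peaks in promoters (filled circles) and outside them (open squares); tRNA peaks are low in both places.

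The replicates matched at members about as often as elsewhere. A peak with its summit within 100 bp was found in replicate 1 for 243 members (99.6%), against 99.5% of all IDR peaks, and in replicate 2 for 218 members (89.3%, 84.8 to 92.9), against 87.1% of all IDR peaks. The match in replicate 2 was 86.7% for tRNA, 93.2% for snoRNA and 90.9% for snRNA peaks. IDR kept peaks that the replicates share, and the replicate lists searched hold 30000 peaks each without a threshold. A match was thus largely set by the choice of peaks and is not separate evidence of agreement. Where both replicates had a match, the signal in replicate 1 was 4.94 times that in replicate 2 at the median over 217 members (4.64 to 5.21), against 5.36 times at other IDR peaks.

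**Figure D4:**
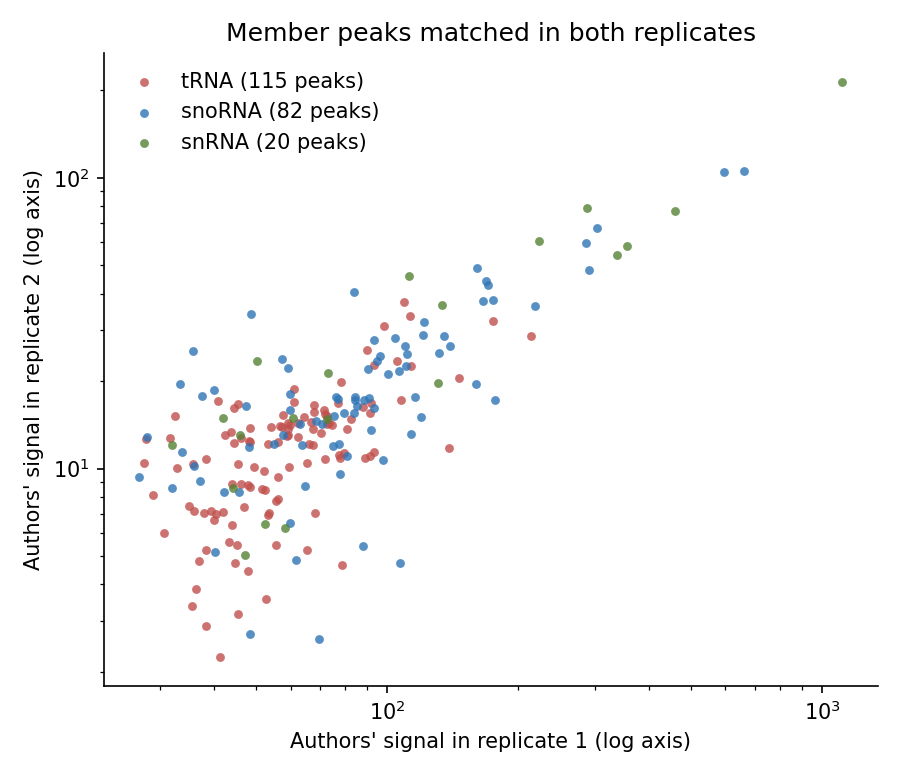
The authors' signal in replicate 2 (vertical, log axis) against that in replicate 1 (horizontal, log axis) for the 217 members matched in both replicates, coloured by the class of the nearest gene. snRNA and snoRNA peaks reach the upper right, with 1114 and 214 beside sls-2.8, and tRNA peaks lie in the lower left.

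The strongest member lay beside sls-2.8, an SL2 RNA gene whose product is spliced onto downstream genes of operons. Its peak, at chrIII:12250228-12250566, had a signal of 1323 and rank 133 in the IDR list, with 1114 in replicate 1 and 214 in replicate 2. The summit was at position -66 from sls-2.8 and also in the promoters of tim-1, a Timeless homologue, and Y75B8A.23. Next among SL2 genes were sls-2.4 with 536 (459.8 in replicate 1, 76.6 in replicate 2), sls-2.2 with 418 (356 and 58.3) and sls-2.1 with 394 (337 and 54.3). These 3 summits, at positions -49, -33 and -58, were in no protein-coding promoter.

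SL2 genes were the most often bound family of snRNA-class genes with 10 or more members. A summit lay beside 9 of 18 sls-2 genes (50%, 26.02 to 74.0), with 8 in replicate 1 and 10 in replicate 2. The 9 genes had 11 summits, since sls-2.2 and sls-2.4 had a second, weaker summit downstream of the gene, at positions 185 and 150, which had no match in replicate 2. The 5 others, beside sls-2.3, sls-2.9, sls-2.16, sls-2.14 and sls-2.7, had signals of 87.1, 73.9, 55.1, 54.5 and 46.8. The summit beside sls-2.9 was also within 200 bp of the tRNA gene M01E5.t1.

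The shared bases did not separate SL2 genes with and without an IDR summit. Of the 3 genes with a summit that are not shown above, sls-2.4 has all 10 bases, sls-2.7 has 8 and sls-2.9 has 6. Among genes without an IDR summit, sls-2.5, sls-2.15 and sls-2.18 carry all 10 shared bases of the upstream stretch shown above and had a summit in the pooled list without a threshold. All 5 sls-2 genes on chromosome IV lacked an IDR summit, whereas sls-2.13 and sls-2.17 had a summit in the pooled list and the others did not. Of these 5, sls-2.12, sls-2.13 and sls-2.17 share 9 of the 10 bases, and sls-2.10 and sls-2.11 share 4. The positions were defined from genes with a summit, so lower numbers elsewhere follow in part from that choice. sls-2.6 shares 2, and the nearest summit lay 204 bp from it, just beyond the 200 bp limit, with a signal of 64.3. None of 12 genes for SL1 RNA, which is spliced onto a larger set of messages, had a summit. By the rule of 3 counts this allows a share of up to 25%, if reads could be placed at these genes. How reads of repeated genes were placed is not given, so a lack of binding cannot be told from a lack of placed reads.

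Among the other snRNA genes, C52E4.8 (V) had a signal of 364, with 289 in replicate 1 and 78.7 in replicate 2. Its summit was also in the promoter of snr-4, which encodes an Sm protein of spliceosomal particles. W05B2.8 (III), in an intron of the dynein heavy chain gene dhc-4, had 287, with 223 in replicate 1 and 60.5 in replicate 2. Of its family of 23 alike genes, 4 had a summit. A family of 19 alike genes that includes C05G6.4 had none, which allows a share of up to 15.8% by the same rule. The limit on the placing of reads holds here too.

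The 5 strongest snoRNA peaks were all in protein-coding promoters. F09G2.14 (V) had a signal of 768 (663 in replicate 1, 105 in replicate 2), with the summit in the promoter of F09G2.2, and Y53F4B.47 (II) had 700.3 (597 and 104), with the summit in the promoter of cmtr-1, a messenger cap methyltransferase gene. C36E8.11 (III) had 372 (304 and 67.3), in the promoter of tif-1A, which encodes a factor for initiation by RNA polymerase I. D2021.6 (X) had 344 (291 and 48.4), in the promoter of sdha-1, which encodes a succinate dehydrogenase subunit. F39B2.14 (I) had 339 (286 and 59.8), in the shared promoter of tmem-107 and of rps-26, a ribosomal protein gene.

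Outside promoters the strongest snoRNA peaks lay beside Y55F3BR.9 (219.8, with 175 in replicate 1 and 37.9 in replicate 2), F59C6.15 (212, with 169 and 44.3) and ZK994.7 (208, with 171 and 42.8). ZK994.7 lies in an intron of pxn-1, a peroxidasin gene, on the same strand. Its summit, at position -39, was thus in the intron and not at the start of pxn-1.

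The share of snoRNA genes with a summit was lowest inside protein-coding genes of the same strand and highest between genes. It was 31 of 183 (16.9%, 11.8 to 23.2) in same-strand hosts, 10 of 33 (30.3%, 15.6 to 48.7) in genes on the opposite strand and 48 of 130 (36.9%, 28.6 to 45.8) between protein-coding genes, and the difference itself was not tested. The corresponding counts were 29, 11 and 45 in replicate 1, and 32, 7 and 42 in replicate 2. Of the 30 summits beside a snoRNA gene with a same-strand host, 8 were in the promoter of that host. Of 160 same-strand host genes of snoRNAs, 15 encode ribosomal proteins, and no snoRNA gene in any of these had a summit. With 15 hosts, this count is too small to tell a lower share from the 16.9% over all same-strand hosts, and it was not tested.

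Few snoRNA genes carry box A letters upstream, and most of these had a summit. Among the 346 snoRNA genes, 26 hold a box A string on their own strand in the 100 bp before the gene, with a median start at position -56 (quartiles -61.25 and -53.25), and none of the 26 has a tRNA gene within 200 bp. A summit lay beside 20 of these 26 (76.9%, 56.4 to 91.0) and beside 69 of the 320 others (21.6%, 17.2 to 26.5). In replicate 1 the counts were 19 and 66, and in replicate 2 they were 16 and 65. This comparison was made after the letters had been seen to be frequent near snoRNA summits.

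The box A contrast was seen in each host context. Summits lay beside 8 of 13 genes with a box A string and 23 of 170 without one in same-strand hosts, beside 5 of 5 and 5 of 28 in opposite-strand hosts, and beside 7 of 8 and 41 of 122 between genes. For GTTCGA, the box B string, 19 of 24 genes with it (79.2%) and 70 of 322 without it (21.7%) had a summit. Of 10 snoRNA genes with both strings upstream, 8 had a summit, and in these 8 the start of box B followed that of box A by 41 to 43 bases. The spacing in the genes with both strings but no summit is not given here, so it was not compared. The peaks of the 4 such genes shown above had modest signals of 131 (T24H7.6), 95.4 (T06C12.16), 90.4 (T10B9.11) and 76.7 (F11A10.9). In replicate 1 these were 113, 88.2, 70.7 and 63.2, and in replicate 2 13.1, 5.43, 14.2 and 14.2.

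tRNA genes with and without these strings had like shares with a summit. The strings are fixed letters, and a gene without them can hold a box of other letters. The shares thus do not compare genes with and without a box. A box A string was held by 261 tRNA genes, of which 22.6% had a summit, against 25.1% of the 351 others. GTTCGA was held by 442, of which 25.3% had a summit, against 20.6% of the 170 others, with overlapping intervals (21.3 to 29.7 and 14.8 to 27.5).

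tRNA genes of every amino acid were among those with a summit. The share ran highest for valine with 11 of 31 genes (35.5%), glutamate with 14 of 41 (34.1%) and threonine with 11 of 34 (32.4%), leaving out the single selenocysteine gene, which had a summit. It was lowest for tyrosine with 2 of 19 (10.5%), aspartate with 4 of 27 (14.8%) and glycine with 9 of 55 (16.4%). The intervals of these shares overlapped. The anticodon could be assigned to 554 of 612 genes, and those with most bound genes were TCC (glycine) with 8 of 36 and, with 7 each, CTC (glutamate) of 24, CTT (lysine) of 30 and TTC (glutamate) of 17. No anticodon with 10 or more genes was without a summit.

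The share of tRNA genes with a summit was lower on the X chromosome than on each autosome, with intervals for X and the autosomes together that did not overlap. On X, 36 of 276 genes had one (13.0%, 9.31 to 17.6), against 111 of 336 on autosomes (33.0%, 28.0 to 38.3). The counts were 33 on X and 111 on autosomes in replicate 1, and 40 and 95 in replicate 2. Single autosomes ranged between 26.9% on V and 42.2% on III, and the difference itself was not tested. Outside promoter windows the shares were 30 of 251 on X (11.95%) and 88 of 274 on autosomes (32.1%). A low share on X was not confined to tRNA genes. Of snoRNA genes on X, 2 of 33 had a summit (6.06%, 0.743 to 20.2), and single autosomes ranged between 18.5% on III and 32.7% on V. Of the 3 snRNA genes on X, 1 had a summit.

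The X chromosome carries 45.1% of tRNA genes, held 22.2% of tRNA summits and 10.6% of all IDR peaks. In the pooled list without a threshold, 151 tRNA genes of X (54.7%, 48.6 to 60.7) and 240 of autosomes (71.4%, 66.3 to 76.2) had a summit, with median signals of 25.8 and 36.3 for the strongest peak beside each gene. Identical copies are common on both, at 79.3% of X and 74.4% of autosomal tRNA genes. Among tRNA genes with a unique sequence, 3 of 57 on X (5.26%) and 20 of 86 on autosomes (23.3%) had a summit, and among those with an identical copy 15.1% and 36.4% had one.

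**Figure D5:**
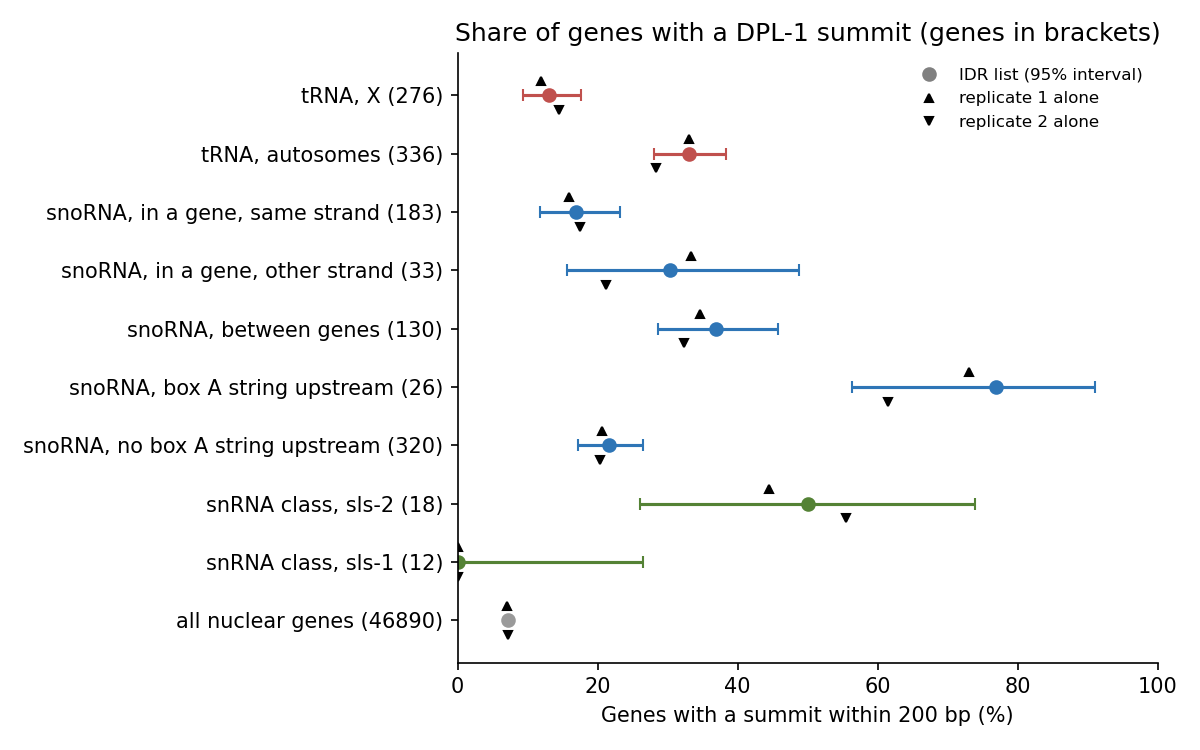
Percent of genes with a summit within 200 bp (horizontal axis) in the IDR list (circles, exact 95% intervals) and among the 3726 strongest peaks of each replicate (triangles), for tRNA genes of X and autosomes, snoRNA genes by host and by upstream box A string, the SL2 (sls-2) and SL1 (sls-1) genes, and all nuclear genes, with the number of genes in brackets. snoRNA genes with the string stand highest at 76.9%, and tRNA genes of X lie below those of autosomes at 13.0% against 33.0%.

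The strongest tRNA peak, at chrIII:11066821-11066986, lay between W09D6.t2 (tRNA-Pro) and W09D6.t1, in an intron of rsa-2, a spindle assembly gene. Its signal was 241, with 214 in replicate 1 and 28.6 in replicate 2. C28G1.t1 (tRNA-Glu, X) had 206 (175 and 32.2), but its summit was 172 bp from the gene and in the promoters of C28G1.2 and sec-15, an exocyst gene. C37A2.t1 (tRNA-Cys, I), in an intron of the cyclin E gene cye-1, had 167 (146 and 20.6). F15B9.t1 (tRNA-Ala, V), in the formin gene inft-2, had 152 (139 and 11.8), and F47G6.t1 (tRNA-Arg, I), in the myosin gene spe-15, had 146 (113 and 33.4).

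Host context made less difference for tRNA genes, whose shares with a summit were 28.1% in same-strand hosts, 26.8% in opposite-strand hosts and 20.8% between genes. Copy number did not order them either, with 16.1% of 143 unique genes, 30.3% of 152 genes with 2 to 9 identical copies and 24.6% of 317 genes with 10 or more. Of the 244 summits, 15 lay within 200 bp of 2 small RNA genes and the others of 1. At the edge of the rule, the farthest member was 194 bp from the snoRNA gene C54G4.16 (signal 64.8), and beyond it W06H8.17, a snoRNA gene, lay 216 bp from a summit with a signal of 126.

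Other strings, among them those of E2F and DREAM sites, were set beside those of other IDR summits, and the differences were not tested. The search covered both strands and 50 bp to each side of the summit. An E2F string (TTTCCCGC, TTTCGCGC, TTTGCCGC or TTTGGCGC) was near 11 members (4.51%, 2.27 to 7.92) and 7.61% of other IDR summits, a share within the members' interval, and was in 1.88% of windows of that length upstream of protein-coding starts. TTTGAA, a form of the cell cycle homology region (CHR) element that DREAM binds through LIN-54, was near 9.43% of members and 24.4% of other IDR summits, and was in 28.99% of those upstream windows. GAGAGAGA was near 0.820% of members (0.0994 to 2.93) and 6.55% of other IDR summits, and was in 1.55% of those upstream windows. The string is shown 5' to 3' on the strand that holds it, which for C52E4.8 and D2021.6 is opposite to the gene. Members with an E2F string included the following, with its letters in capitals.
C52E4.8: caaatcgcggcTTTCGCGCacaatggtgct
D2021.6: ccagcagtcccTTTGGCGCatttcacgaag
Y97E10C.t1: aatgtaaccagTTTCCCGCcaaattcacgc

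The strings of polymerase III promoters had higher shares near members. A box A string was near 30.7% of members (25.01 to 36.9) and 6.35% of other IDR summits, and near 37.8% of tRNA and 27.3% of snoRNA summits. GTTCGA was near 21.3% of members (16.3 to 27.0) and 4.08% of other IDR summits. Since members were chosen by their distance to genes that carry these boxes, this share describes the choice for tRNA summits. TTCGAA, another CHR form whose letters overlap box B and which 143 of 612 tRNA genes hold, was near 6.15% of members (9.63% of tRNA summits) and 6.49% of other IDR summits. Of the windows upstream of protein-coding starts, 2.63% held a box A string, 3.32% held GTTCGA and 6.40% held TTCGAA. None of the 22 snRNA summits had a box A, box B, TTTGAA or TTCGAA string.

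The genes whose products make or use small RNAs were described apart from these peaks. They were listed with earlier results of these data known, so the share with a summit may depend on that choice. Its difference from all protein-coding genes was not tested. Of 30 listed genes 28 matched the annotation, and 12 had an IDR summit in their promoter (42.9%, 24.5 to 62.8), against 14.3% of all protein-coding genes. They included nol-58, fib-1 and nol-56, core proteins of box C/D snoRNA particles, with signals of 1471 (1184 in replicate 1, 288 in replicate 2), 474 (419.97 and 58.2) and 410.2 (346 and 66.4). They also held the SNAPc genes snpc-3.4, snpc-1.1, snpc-4 and snpc-1.2, with 724, 247, 145 and 52.7, and the polymerase subunit genes rpb-8, rpc-1 and rpac-19, with 672, 238 and 190.4. The TFIIIC gene tftc-1 had 186 and the tRNA exportin gene xpo-3 had 55.2. No summit lay in the promoters of the SNAPc genes snpc-1.3, snpc-3.1 and snpc-3.2, the TFIIIC genes tftc-3 and tftc-5, or the polymerase subunit genes rpc-2 and rpac-40. The same held for tbp-1, brf-1, nola-3, hoe-1, popl-1, popl-4, popl-5, rtcb-1 and gro-1. None of the 12 peaks was itself beside a small RNA gene.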

How the data were processed

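The 2 replicates were put in 1 group from their labels. The authors deposited peak lists on builds ce10 and ce11; ce11 lists were used, since the annotation (Ensembl release 115) is of that assembly, and ce10 lists were not used here. Each replicate list was made from that replicate's alignment with a control, per the deposited descriptions, and IDR then joined replicate and pooled lists. Aligner and peak caller are not given in the sources used here. Read totals were unknown, and controls and alignments were not analysed here. The authors' signal per peak, on an unstated scale, was used as deposited to describe and rank peaks. The −log10 q deposited by the authors was not used for ranking. The summit was the deposited offset from the peak start, another column of the authors.

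Members and gene lists were chosen with earlier results of these data known. Genes were named with RefSeq by WormBase ID, and 24 mitochondrial genes were left out. Promoters ran from 500 bp upstream to 200 bp downstream of transcript starts, and matched summits lay within 100 bp. snRNA families joined genes of 80% identity or more. No test was made, since 1 group of 2 samples allows none. Named were the 10 strongest members, the 5 strongest per class and 3 outside promoters, those nearest the 200 bp limit, anticodons with most summits, hosts and promoters, and bound machinery genes; other SL2 genes, string carriers and snRNA families were named after their values were seen. Alternatives were other distances, promoters, matches and windows, each replicate alone, merged peaks and the 1863 stronger peaks. Python 3.11.15, numpy 2.4.6, scipy 1.17.1, pandas 2.3.3, matplotlib 3.10.9 and edlib 1.3.9.post1 were used, and the code was tested on simulated data.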

Additional observations from a re-analysis of the deposited data

How the results depend on the processing

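Of 103 recomputed values of 18 results, 80 moved by less than their interval or stayed within 1.5 times of a count, among them all those within 100 bp and with merged peaks. With the 1863 stronger peaks, members numbered 79 (tRNA 23, snoRNA 46, snRNA 10), 30.4% of them in promoters (75.2% of all 1863). A summit lay at 4.25% of tRNA, 13.6% of snoRNA and 6.98% of snRNA genes. TTCGAA was at 0% of tRNA summits, and 100% and 94.9% of members were matched in replicates 1 and 2. The median rank percentile of members was 76.0 among these peaks and 59.9 in the whole IDR list. Ranks run from the strongest peak, so a higher percentile means a weaker peak. Within 500 bp, 30.9% of snoRNA genes had a summit and 91.2% of tRNA summits were upstream or inside. Promoters from 1000 bp upstream held 32.0% of members, and those from 250 bp upstream to 50 bp downstream 9.84%, beside 70.3 and 43.9% of all IDR peaks. Matching within 50 bp gave 95.9% in replicate 1 and 72.5% in replicate 2, and by overlap 96.3% in replicate 2. String windows of 100 bp gave 8.20% with E2F and TTCGAA at 22.2% of tRNA summits. With either replicate alone, the median rank percentile of members was 52.1 to 60.5 and the share of tRNA summits upstream or inside 90.3 to 96.97%. The cause of these shifts was not tested. Read depth was unknown, and its part in the counts was not tested. No paired analysis was possible because there is 1 group.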
